A study of Mus musculus with 12 samples.

Results

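The genes described here make and sense the prostaglandins and leukotrienes, lipid signals that immune cells form from arachidonic acid. They were chosen by name, as the rows for Pla2g4a, Ptgs1, Ptgs2, Ptges, Tbxas1, Alox5, Alox5ap, Lta4h, Ptger2 and Ptger4, and all 10 were found among the 53819 genes of each count table and passed the filter on low counts. RNA-seq was done on bone marrow monocytes, a circulating white cell taken here from its tissue of origin, of wild-type C57Bl6J mice. The 12 libraries formed 4 groups of 3: monocytes that were held with platelets overnight and, after a wash, received LPS (PLT+LPS), monocytes that received LPS alone (LPS), monocytes held with platelets but without LPS (PLT), and monocytes given neither (untreated). LPS, the lipopolysaccharide of bacterial outer membranes, is sensed by Toll-like receptor 4. Strain, genotype, tissue and cell type were the same in all 4 groups. No dose, LPS duration or platelet source is stated in the labels. Nor do they tell if the 3 libraries of 1 group stem from different mice or cultures. The p-values below therefore reflect spread among libraries, and that spread may be technical only.

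Eicosanoid synthesis starts when a phospholipase frees arachidonic acid from membrane phospholipids. The cyclooxygenases turn it into prostaglandin H2, from which terminal synthases make prostaglandin E2, thromboxane and other prostanoids, while 5-lipoxygenase and its partner protein turn it into leukotriene A4, the precursor of leukotriene B4 and of the cysteinyl leukotrienes. In monocytes and macrophages, prostaglandin E2 acts back on the cells through receptors that raise cyclic AMP, and platelets are a classical source of thromboxane.

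Total counts per library ran between 20060867 and 32155727. Levels are given as CPM, counts scaled to a common library size with edgeR's trimmed mean of M-values, and 3 counts came to between 0.0853 and 0.163 CPM. The 12 monocyte markers examined summed to 41637 to 44627 CPM in PLT+LPS libraries and 38527 to 42625 CPM in LPS libraries. Their sum was 42178 to 45332 CPM in PLT libraries and 35850 to 39472 CPM in untreated libraries. None was at 0 in any group. At an adjusted p under 0.05 in edgeR, 3 were higher and 2 lower in PLT+LPS against LPS libraries. In PLT against untreated libraries 1 was higher and 1 lower, and in LPS against untreated libraries 5 and 3. PLT replicate 1 carries the description "Control", while its title and treatment name platelets. It also stood apart: the chi-square per degree of freedom between its counts and those of its 2 replicates was 69.1 and 75.8, against 6.29 to 19.8 for every other pair within a group. Its results are kept under its title here, and results that rest on it are also given without it.

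The plot of CPM by library shows 3 kinds of behaviour among the 10 genes. Ptgs2 and Ptges were near the detection limit or at a few CPM without LPS and among the most expressed of the 10 with it. Pla2g4a, Ptger2 and Ptger4 were higher with LPS by smaller factors, and Ptgs1, Tbxas1, Alox5, Alox5ap and Lta4h were lower with it. Across the LPS pair of groups, prior platelets went with lower Ptgs2 and Pla2g4a.

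**Figure D1:**
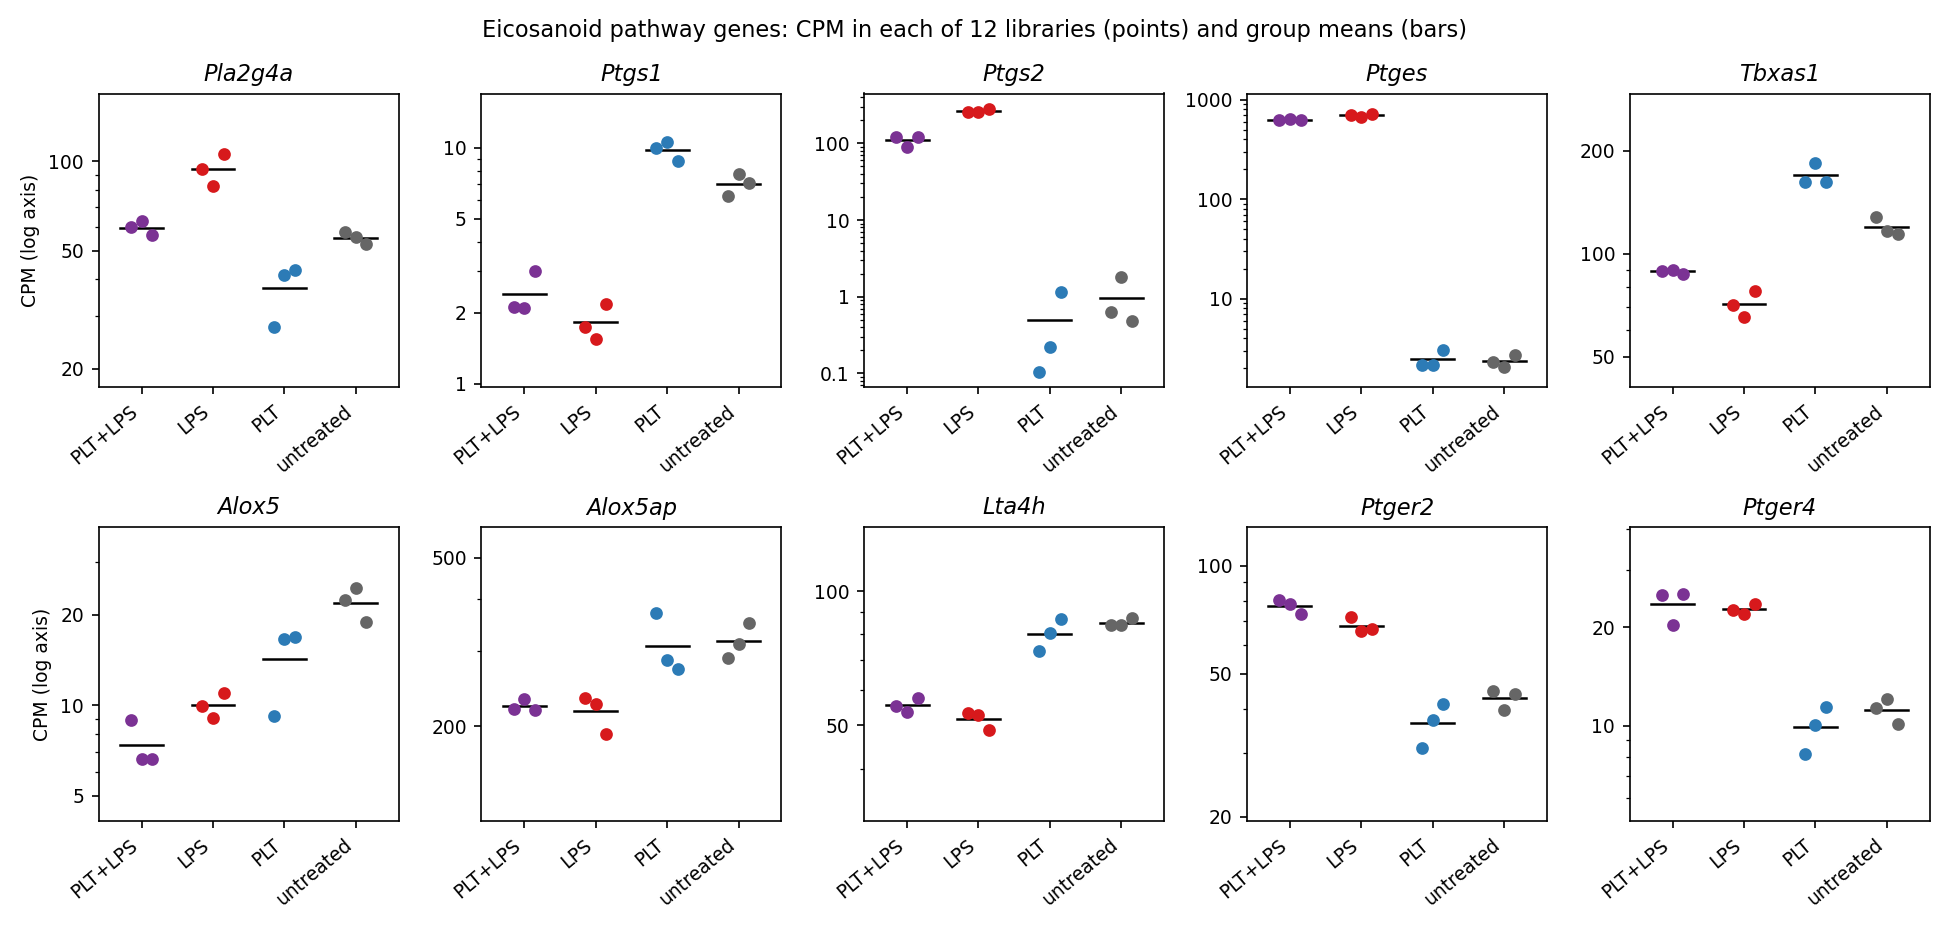
CPM (log axis) of the 10 eicosanoid genes in each library, by group in the order PLT+LPS, LPS, PLT and untreated, with points for libraries and bars for group means (n = 3). Ptgs2 lies between 89.7 and 120.2 CPM in PLT+LPS libraries and between 254 and 279 CPM in LPS libraries, while Ptges lies between 621 and 636 CPM and between 672 and 719 CPM in the same groups.

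LPS without platelets was compared with no treatment to see which steps of the pathway LPS itself moved. All 10 genes passed the test, 5 higher and 5 lower (edgeR quasi-likelihood test, Benjamini-Hochberg adjusted p under 0.05), in a comparison in which 50.7% of the 13151 genes tested were called, 27.7% higher and 23% lower. That split was 3640 higher and 3022 lower, but 2650 and 4350 with upper-quartile scaling and 2133 and 5975 with unscaled library totals, while the 10 stayed at 5 and 5. In each of the 10 the LPS and untreated libraries did not overlap, as was so for 60.5% of all genes tested. The median absolute log2 fold change of the 10 was 0.90, against 0.47 over all genes tested. Among the 10, the prostaglandin E2 branch held the 2 largest rises, and Alox5, Alox5ap, Lta4h, Ptgs1 and Tbxas1 were lower.

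Ptgs2 encodes the inducible cyclooxygenase COX-2. Its level was 254, 254 and 279 CPM in LPS libraries, against 0.631, 1.79 and 0.476 CPM in untreated libraries, where it rested on 18, 51 and 14 counts. The LPS and untreated libraries lay far apart, and the untreated ones varied among themselves. The rise was 272-fold (log2 fold change 8.09, SE 0.40, edgeR adjusted p = 6.33e-11). Ptges encodes microsomal prostaglandin E synthase-1, the inducible enzyme that works with COX-2. It was at 699, 672 and 719 CPM in LPS libraries, against 2.31, 2.07 and 2.75 CPM in untreated libraries. Each group was tight and the groups did not come near each other. The rise was 292-fold (log2 fold change 8.19, SE 0.14, edgeR adjusted p = 8.28e-16).

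Ptgs1, the gene of the constitutive cyclooxygenase COX-1, moved the other way. It had 1.74, 1.54 and 2.18 CPM in LPS libraries, against 6.24, 7.78 and 7.07 CPM in untreated libraries, and was 3.89-fold lower (log2 fold change -1.96, SE 0.21, edgeR adjusted p = 7.59e-07). All 3 LPS libraries lay under all 3 untreated ones. Per kilobase of exon, Ptgs2 was at 57.3 and Ptgs1 at 0.468 CPM in LPS libraries, against 0.211 and 1.81 CPM in untreated libraries. The 2 cyclooxygenase genes stood in the opposite order with and without LPS. Tbxas1 encodes thromboxane A synthase, which draws on the same prostaglandin H2 as Ptges. It was at 70.7, 65.2 and 77.9 CPM in LPS libraries, against 128, 116 and 114 CPM in untreated libraries, again without overlap, and fell by 0.75 on the log2 scale (SE 0.09, edgeR adjusted p = 3.52e-06).

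Pla2g4a, the cytosolic phospholipase A2 that frees arachidonic acid, was at 94.0, 82.5 and 106 CPM in LPS libraries, against 57.6, 55.6 and 52.7 CPM in untreated libraries. The LPS libraries were all higher, by 1.70-fold (log2 fold change 0.77, SE 0.14, edgeR adjusted p = 0.00023).

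Alox5, Alox5ap and Lta4h, the leukotriene genes among the 10, were all lower with LPS. Among 7 other leukotriene enzyme or cofactor genes tested, 0 were higher and 3 lower by edgeR. Of 4 leukotriene or lipoxin receptor genes, 3 were higher and 1 lower, against 27.7% and 23% of all genes tested. Alox5, which encodes 5-lipoxygenase, had 9.95, 9.05 and 10.9 CPM in LPS libraries, against 22.4, 24.4 and 18.9 CPM in untreated libraries. That is a 2.20-fold fall without overlap between the groups (log2 fold change -1.14, SE 0.20, edgeR adjusted p = 0.000215). Alox5ap encodes FLAP, the membrane protein that presents arachidonic acid to 5-lipoxygenase, and averaged 217 ± 22.4 CPM in LPS libraries and 317 ± 30.1 CPM in untreated libraries (SD, n = 3 each). Its fall of 0.55 on the log2 scale (SE 0.12, edgeR adjusted p = 0.00087) was the smallest of the 10. Lta4h, the hydrolase that makes leukotriene B4, averaged 51.7 ± 2.42 CPM in LPS libraries and 85.0 ± 1.81 CPM in untreated libraries (SD, n = 3 each), a fall of 0.72 (SE 0.08, edgeR adjusted p = 2.64e-06). The summed CPM of 11 neutrophil markers, most of it Mmp8, was 233 to 288 in LPS libraries and 342 to 363 in untreated libraries. Of the 7 neutrophil markers tested, Mmp9 (7.98-fold) and Camp (2.69-fold) were higher and Mmp8 (1.49-fold) and Retnlg (8.38-fold) lower by edgeR, so the list did not move one way. Neutrophils are rich in 5-lipoxygenase, and the part of such cells in the falls of Alox5, Alox5ap and Lta4h was not tested. In bulk RNA, fewer cells of a type and less RNA per cell cannot be told apart.

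Both prostaglandin E2 receptor genes were higher with LPS. Ptger4 encodes EP4 and was at 22.6, 22.0 and 23.6 CPM in LPS libraries, against 11.3, 12.1 and 10.1 CPM in untreated libraries. The LPS libraries were 2.04-fold higher with no overlap (log2 fold change 1.03, SE 0.14, edgeR adjusted p = 1.09e-05). Ptger2, the gene of EP2, was at 71.9, 65.7 and 66.4 CPM in LPS libraries, against 44.7, 39.7 and 43.8 CPM in untreated libraries. It was 1.59-fold higher (log2 fold change 0.67, SE 0.10, edgeR adjusted p = 4.47e-05). EP2 and EP4 both raise cyclic AMP when prostaglandin E2 binds. The calls on the 10 genes held in all 21 alternatives. Counts scaled by library size alone moved the median of all genes tested by -0.38 on the log2 scale, and no direction among the 10 turned with it.

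The sequences at the starts of the 2 cyclooxygenase genes and of Ptges are shown because these 3 genes carry the contrast between inducible and constitutive enzymes. RefSeq windows on GRCm38.p6, 250 bases before to 50 bases after the annotated start, were at hand for 9 of the 10 genes. The sources used here name no genome build for the count tables, and the windows serve only to show the sequence. Ptgs2 lies at chr1:150099781-150100080 on the plus strand, Ptges at chr2:30903248-30903547 on the minus strand and Ptgs1 at chr2:36230176-36230475 on the plus strand, each written 5′ to 3′ with motif matches in capitals.
Ptgs2: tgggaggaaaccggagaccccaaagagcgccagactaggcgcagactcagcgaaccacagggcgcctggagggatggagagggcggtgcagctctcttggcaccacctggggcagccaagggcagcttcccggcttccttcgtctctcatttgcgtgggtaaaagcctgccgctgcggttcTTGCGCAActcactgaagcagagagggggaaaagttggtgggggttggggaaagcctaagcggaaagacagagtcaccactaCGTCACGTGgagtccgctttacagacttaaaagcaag
Ptges: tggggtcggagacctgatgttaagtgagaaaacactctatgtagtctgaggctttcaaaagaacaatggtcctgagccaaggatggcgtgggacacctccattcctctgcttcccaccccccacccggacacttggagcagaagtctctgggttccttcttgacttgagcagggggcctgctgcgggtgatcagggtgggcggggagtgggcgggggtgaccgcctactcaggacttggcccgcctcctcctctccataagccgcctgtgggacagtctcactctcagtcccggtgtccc
Ptgs1: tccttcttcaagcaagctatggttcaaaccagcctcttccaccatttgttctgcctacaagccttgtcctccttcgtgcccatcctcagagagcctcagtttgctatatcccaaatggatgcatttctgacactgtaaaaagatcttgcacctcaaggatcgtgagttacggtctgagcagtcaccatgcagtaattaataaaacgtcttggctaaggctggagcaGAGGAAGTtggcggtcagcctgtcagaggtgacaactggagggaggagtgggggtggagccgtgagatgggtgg

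The motifs searched on both strands were those of NF-kB and ISRE by name, the cyclic AMP response element or CRE, TGACGTCA, with its core spelt TGACG, the AP-1 motif, which reads TGANTCA, the C/EBP motif (TTGCNNAA), the E-box, which reads CACGTG, the TATA box, searched as the letters TATAAA, and a core of the PU.1 motif (GAGGAAGT). In the Ptgs2 window the capitals mark a C/EBP match at -69 to -62 and, at +14 to +22, the reverse of TGACG at +14 to +18 overlapping the E-box at +17 to +22. Of 32851 RefSeq windows of this length, 10.8% held the C/EBP motif, 20.8% TGACG and 7.15% the E-box. The capitals in the Ptgs1 window mark a PU.1 core at -24 to -17, found in 3.20% of windows. None of the 9 motifs was in the Ptges window. Among the other genes, Tbxas1 held AP-1 and TATA matches, Ptger2 a C/EBP match and the second of the Pla2g4a windows a TATA match. NF-kB, ISRE and full CRE letters were in 8.46%, 3.44% and 1.79% of all windows and in none of the windows of these genes. A match describes letters in a window of 300 bases and no site, and the start that these monocytes use was not measured.

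Monocytes given platelets before LPS were compared with monocytes given LPS alone, which shows how platelet exposure bore on the pathway under LPS. Of the 10 genes, Ptgs2 and Pla2g4a were lower, Tbxas1 was higher and 7 did not pass the test (edgeR, adjusted p under 0.05), where 7.28% of all genes tested were called, 4.41% higher and 2.87% lower. The groups did not overlap for 7 of the 10, namely those 3 and Ptges, Alox5, Lta4h and Ptger2, against 27% of all genes tested. The median absolute log2 fold change of the 10 was 0.25, against 0.18 over all genes tested. The count was the same, 1 higher and 2 lower, without PLT replicate 1, while the count over all genes rose. It was 1640 of 13568 (863 higher and 777 lower), against 957 of 13151 with all libraries.

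Ptgs2 was at 120.2, 89.7 and 119.7 CPM in PLT+LPS libraries, against 254, 254 and 279 CPM in LPS libraries. Every PLT+LPS library was under the lowest LPS library by a factor above 2. The gene was 2.39-fold lower (log2 fold change -1.25, SE 0.27, edgeR adjusted p = 0.00831). The call was lost by DESeq2 (log2 fold change -1.27, SE 0.72, adjusted p = 0.323) and in edgeR without PLT+LPS replicate 2, the lowest library (-1.13, adjusted p = 0.0628). A fit of the 2 groups alone gave -1.26 (edgeR adjusted p = 5.14e-06), limma-voom -1.26 (adjusted p = 3.32e-05) and the fit without PLT replicate 1 gave -1.27 (edgeR adjusted p = 0.000135).

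Ptges, its partner in making prostaglandin E2, was at 621, 636 and 625 CPM in PLT+LPS libraries, against 699, 672 and 719 CPM in LPS libraries. All 3 PLT+LPS libraries were lower, and the difference of -0.15 on the log2 scale did not pass the test (95% interval -0.36 to 0.06, edgeR adjusted p = 0.458). There were 19.4, 14.1 and 19.1 counts of Ptgs2 per 100 counts of Ptges in PLT+LPS libraries, against 36.3, 37.7 and 38.8 in LPS libraries. This ratio, chosen after its values were seen and given without a test, does not depend on library size and did not overlap between the groups. Ptgs1 had 2.11, 2.10 and 3.01 CPM in PLT+LPS libraries, against 1.74, 1.54 and 2.18 CPM in LPS libraries, with overlapping groups (log2 fold change 0.42, 95% interval -0.05 to 0.88, edgeR adjusted p = 0.323).

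Pla2g4a was at 60.3, 62.9 and 56.3 CPM in PLT+LPS libraries, against 94.0, 82.5 and 106 CPM in LPS libraries. The groups did not overlap, and the gene was 1.57-fold lower (log2 fold change -0.65, SE 0.14, edgeR adjusted p = 0.00822). Without LPS replicate 3 the difference was -0.56 and sat at the threshold (edgeR adjusted p = 0.0501), and the call held in 20 of 21 alternatives.

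Tbxas1 was at 89.4, 90.0 and 87.2 CPM in PLT+LPS libraries, against 70.7, 65.2 and 77.9 CPM in LPS libraries. All PLT+LPS libraries were higher, by 1.25-fold (log2 fold change 0.32, SE 0.09, edgeR adjusted p = 0.0431). The direction was kept in all 21 alternatives and the call in 9. It was lost without any one of untreated replicates 1, 2 or 3, LPS replicates 1 or 2, or PLT+LPS replicates 1, 2 or 3, with edgeR adjusted p between 0.0541 and 0.186 and log2 fold changes between 0.26 and 0.33. It was also lost with a replicate block (edgeR adjusted p = 0.0871), with DESeq2 size factors (0.0663) or library size alone (0.0849) in edgeR, and with no filter (0.0655).

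Alox5, Alox5ap and Lta4h of leukotriene synthesis and the receptor genes Ptger2 and Ptger4 did not pass the test in this comparison. Other leukotriene enzymes, some of them called, are described further below. Alox5 had 8.91, 6.59 and 6.61 CPM in PLT+LPS libraries, against 9.95, 9.05 and 10.9 CPM in LPS libraries (log2 fold change -0.43, 95% interval -0.88 to 0.02, edgeR adjusted p = 0.283). The highest PLT+LPS library lay just under the lowest LPS library. Neutrophil markers summed to 152 to 167 CPM in PLT+LPS libraries and 233 to 288 CPM in LPS libraries. Of the 7 tested, 1 was lower by edgeR, Mmp8 (log2 fold change -0.93), and 0 were higher, with Camp at 0.48 and Mmp9 at -0.25; their part in the Alox5 values was not tested. Alox5ap differed by 0.04 (95% interval -0.20 to 0.29), Lta4h by 0.10 (-0.08 to 0.28), Ptger2 by 0.18 (-0.03 to 0.40) and Ptger4 by 0.06 (-0.23 to 0.34) on the log2 scale. Lta4h and Ptger2 were higher in every PLT+LPS library than in any LPS library, while the groups overlapped for Alox5ap and Ptger4.

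**Figure D2:**
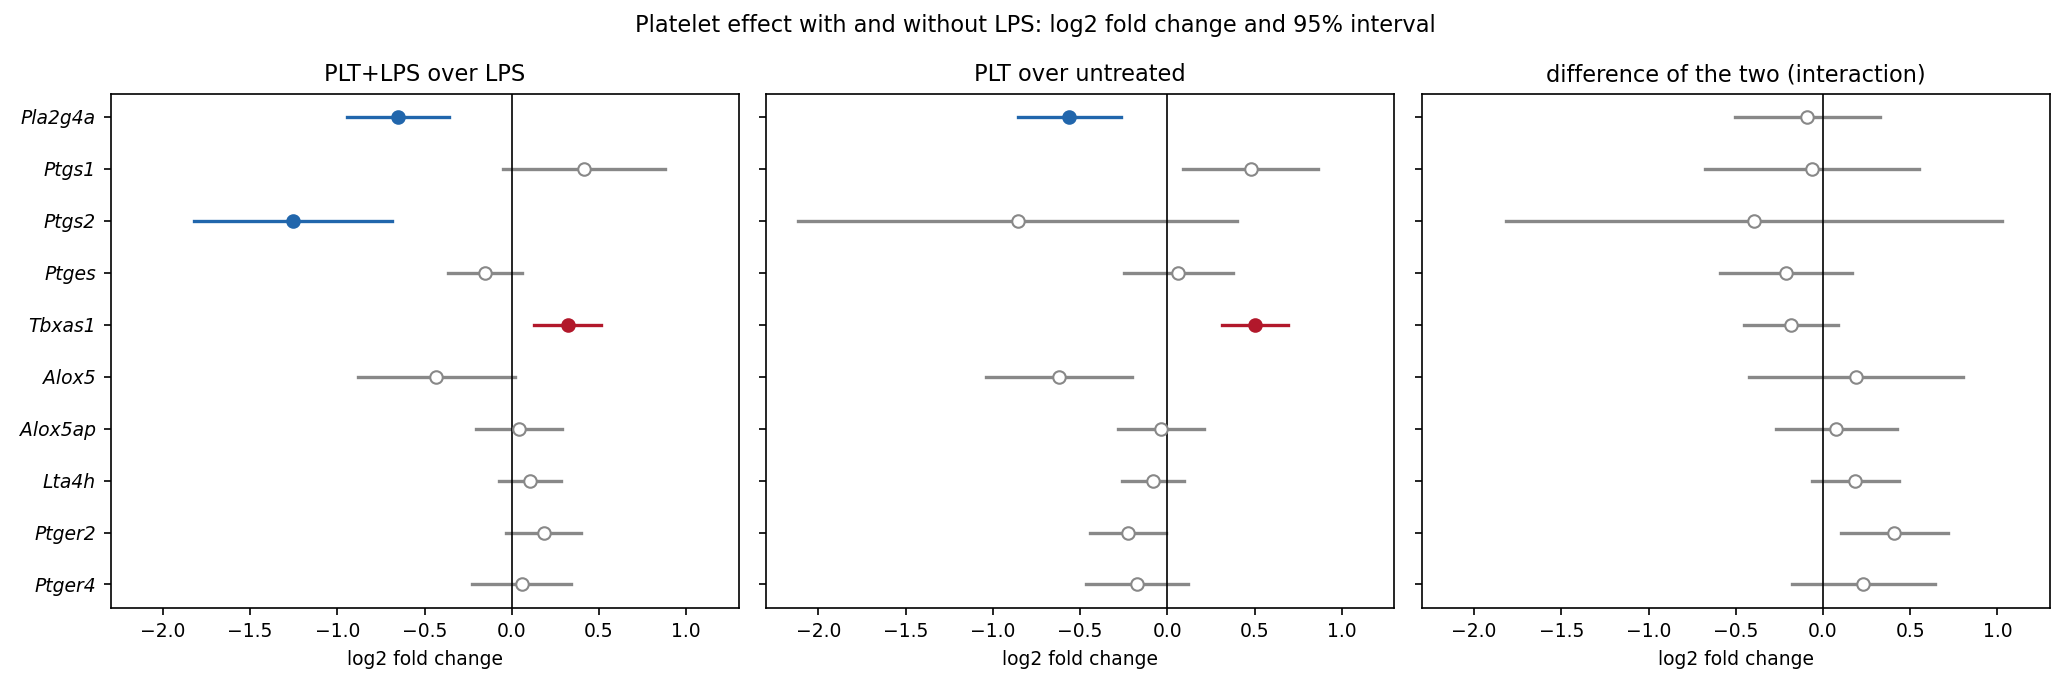
Log2 fold changes of the 10 genes with platelets, after LPS (PLT+LPS over LPS) and without LPS (PLT over untreated), and the difference between the 2 effects, as points with 95% intervals from edgeR; colour marks genes past the adjusted threshold. Ptgs2 lies at -1.25 and Pla2g4a at -0.65 under LPS, and the intervals of the difference include 0 for every gene except Ptger2, at 0.41.

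Platelets without LPS were compared with no treatment, to set the platelet effect at rest beside the one under LPS. Tbxas1 was higher and Pla2g4a lower, and 8 of the 10 genes did not pass the test (edgeR, adjusted p under 0.05), where 6.49% of all genes tested were called, 3.63% higher and 2.86% lower. At an unadjusted p under 0.05 there were 5 of the 10, against 19.9% of all genes tested. The groups did not overlap for Pla2g4a, Ptgs1, Tbxas1 and Alox5, and 25.1% of all genes tested did not overlap. Without PLT replicate 1 the counts were also 1 higher and 1 lower, where 590 of 13568 genes tested were higher and 296 lower.

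Tbxas1 was at 163, 184 and 162 CPM in PLT libraries, against 128, 116 and 114 CPM in untreated libraries. All 3 PLT libraries were higher, by 1.42-fold (log2 fold change 0.50, SE 0.09, edgeR adjusted p = 0.00271), and the call held in all 21 alternatives, PLT replicate 1 left out included (0.55, adjusted p = 0.000604). Ptgs1, which feeds thromboxane synthesis in platelets, had 9.96, 10.6 and 8.82 CPM in PLT libraries, against 6.24, 7.78 and 7.07 CPM in untreated libraries. It too was higher in each PLT library, with a difference that did not pass the test (log2 fold change 0.48, 95% interval 0.09 to 0.87, edgeR adjusted p = 0.145).

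Platelets carry RNA of Ptgs1, Tbxas1 and Alox12, and platelet transcripts were present in the libraries of exposed monocytes. Of 20 platelet markers, 16 were tested; 10 were higher and 1 lower in PLT+LPS against LPS libraries, and 9 were higher and 1 lower in PLT against untreated libraries. Pf4, the gene of platelet factor 4, was not called (log2 fold change -0.25 under LPS and 0.10 at rest), and Ppbp, another platelet chemokine gene, was the 1 lower in both (-0.86 and -0.48). The platelet markers' summed CPM, most of it Pf4, was 3759 to 4029 in PLT+LPS, 3912 to 4726 in LPS, 3568 to 6417 in PLT and 3819 to 4523 in untreated libraries, and 1, 5, 1 and 6 of the 20 were at 0 in the 4 groups. Gp9, a subunit of the platelet glycoprotein Ib complex, was at 3.45, 4.45 and 4.38 CPM in PLT+LPS libraries, at 0.0724, 0 and 0 CPM in LPS libraries, at 12.7, 9.37 and 8.25 CPM in PLT libraries, and at 0.0350, 0 and 0 CPM in untreated libraries. PLT replicate 1 was the highest of the PLT libraries for Gp9. Basophil or mast cell markers and erythroid markers were also among those called higher with platelets. Of 7 basophil or mast cell markers tested, 2 were higher and 0 lower in PLT+LPS against LPS libraries, and 4 higher and 0 lower in PLT against untreated libraries. Their sum was 84.1 to 95.7 CPM in PLT+LPS, 105 to 109 CPM in LPS, 8.41 to 10.2 CPM in PLT and 1.82 to 2.77 CPM in untreated libraries. The list did not move one way with LPS as this sum did. In LPS against untreated libraries, 3 of the 7 were higher and 2 lower by edgeR, with Hdc 438-fold higher and Prss34 2.64-fold lower. Of 4 erythroid markers tested, 4 were higher in PLT+LPS against LPS libraries and 3 in PLT against untreated libraries. Their sum was 7.08 to 9.35 CPM in PLT+LPS, 0.0362 to 0.650 CPM in LPS, 11.9 to 24.5 CPM in PLT and 1.12 to 1.61 CPM in untreated libraries. The part of RNA of platelets or of these cells in the values of the 10 genes was not tested.

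Pla2g4a was at 27.7, 41.5 and 43.0 CPM in PLT libraries, against 57.6, 55.6 and 52.7 CPM in untreated libraries. Replicate 1 was the lowest PLT library, and all 3 lay under the untreated ones, for a 1.48-fold fall (log2 fold change -0.56, SE 0.14, edgeR adjusted p = 0.0247). Without PLT replicate 1 it was -0.37 (edgeR adjusted p = 0.0376). The call was lost in a fit of the 2 groups alone (-0.55, edgeR adjusted p = 0.108), without untreated replicate 1 (-0.53, 0.104) and without untreated replicate 2 (-0.56, 0.0914).

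Alox5 had 9.18, 16.6 and 16.9 CPM in PLT libraries, against 22.4, 24.4 and 18.9 CPM in untreated libraries. Every PLT library was lower, most of all replicate 1, and the difference did not pass the test (log2 fold change -0.62, SE 0.20, edgeR adjusted p = 0.0780). It was -0.37 without PLT replicate 1 (edgeR adjusted p = 0.186), and past the threshold without PLT replicate 3 (-0.76, 0.0469) or with no filter (-0.62, 0.00422). Neutrophil markers summed to 159 to 200 CPM in PLT libraries and 342 to 363 CPM in untreated libraries. Of the 7 tested, Mmp9 was higher (log2 fold change 0.98) and Mmp8 lower (-1.03) by edgeR, and their part in the Alox5 values was not tested.

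Ptgs2 was close to the limit of detection in both groups, with 3, 7 and 41 counts (0.106, 0.219 and 1.17 CPM) in PLT libraries, against 18, 51 and 14 counts (0.631, 1.79 and 0.476 CPM) in untreated libraries. PLT replicate 3 overlapped the untreated libraries while the other PLT libraries lay under them. The log2 fold change of -0.86 had an SE of 0.59 and did not pass the test (edgeR adjusted p = 0.451). It did without PLT replicate 3 (-2.51, edgeR adjusted p = 0.0268) and with no filter (-0.86, 0.0230), and was -0.41 without PLT replicate 1 (0.770). Ptges was at 2.18, 2.16 and 3.07 CPM in PLT libraries, against 2.31, 2.07 and 2.75 CPM in untreated libraries, with overlapping ranges (log2 fold change 0.06, 95% interval -0.25 to 0.38). For the remaining 4 genes the ranges overlapped as well, with log2 fold changes of -0.04 (Alox5ap), -0.08 (Lta4h), -0.23 (Ptger2) and -0.17 (Ptger4) and edgeR adjusted p of 0.233 or more. Without PLT replicate 1, Ptger2 was at -0.10 (edgeR adjusted p = 0.603).

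LPS was also compared within platelet-exposed monocytes, PLT+LPS against PLT, to see whether the pathway answered LPS there too. All 10 genes passed the test, 5 higher and 5 lower, where 49.4% of all genes tested were called by edgeR, 27.6% higher and 21.8% lower. That split was 3627 higher and 2871 lower, but 2536 and 4623 with upper-quartile scaling and 2194 and 5749 with unscaled library totals. The higher genes were Ptges, Ptgs2, Ptger4, Ptger2 and Pla2g4a, and the lower ones Ptgs1, Alox5, Tbxas1, Lta4h and Alox5ap. PLT+LPS and PLT libraries did not overlap for any of the 10, against 54.8% of all genes tested without overlap. Without PLT replicate 1 all 10 calls were kept, where 6754 of 13568 genes tested were called, 3470 higher and 3284 lower. The log2 fold changes were then 7.20 for Ptgs2, 7.84 for Ptges, 1.08 for Ptger4, 0.92 for Ptger2 and 0.44 for Pla2g4a. Those of the lower genes were -2.07 for Ptgs1, -1.23 for Alox5, -1.02 for Tbxas1, -0.65 for Lta4h and -0.38 for Alox5ap.

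Ptges was 252-fold higher in PLT+LPS than in PLT libraries (log2 fold change 7.98, SE 0.14), and 292-fold higher in LPS than in untreated libraries. For Ptgs2 it was 206-fold higher in PLT+LPS than in PLT libraries, which rested on 3 to 41 counts in PLT libraries, and 272-fold higher in LPS than in untreated libraries. Ptger2, at 80.2, 78.0 and 73.5 CPM in PLT+LPS libraries against 31.1, 37.2 and 41.3 CPM in PLT libraries, was 2.11-fold higher (log2 fold change 1.08, SE 0.10, edgeR adjusted p = 2.37e-07). Ptger4, at 25.2, 20.3 and 25.4 CPM in PLT+LPS libraries against 8.16, 10.03 and 11.4 CPM in PLT libraries, was 2.39-fold higher (log2 fold change 1.26, SE 0.14, edgeR adjusted p = 1.2e-06). No PLT+LPS library of either EP receptor gene came near the PLT libraries. Among the falls, Ptgs1 was at -2.02 (SE 0.20), Alox5 at -0.95 (SE 0.21), Tbxas1 at -0.93 (SE 0.09), Lta4h at -0.53 (SE 0.08) and Alox5ap at -0.47 (SE 0.12) on the log2 scale. Pla2g4a was higher (log2 fold change 0.68, SE 0.14, edgeR adjusted p = 0.000779), and with library size alone its call was lost (0.31, adjusted p = 0.101).

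**Figure D3:**
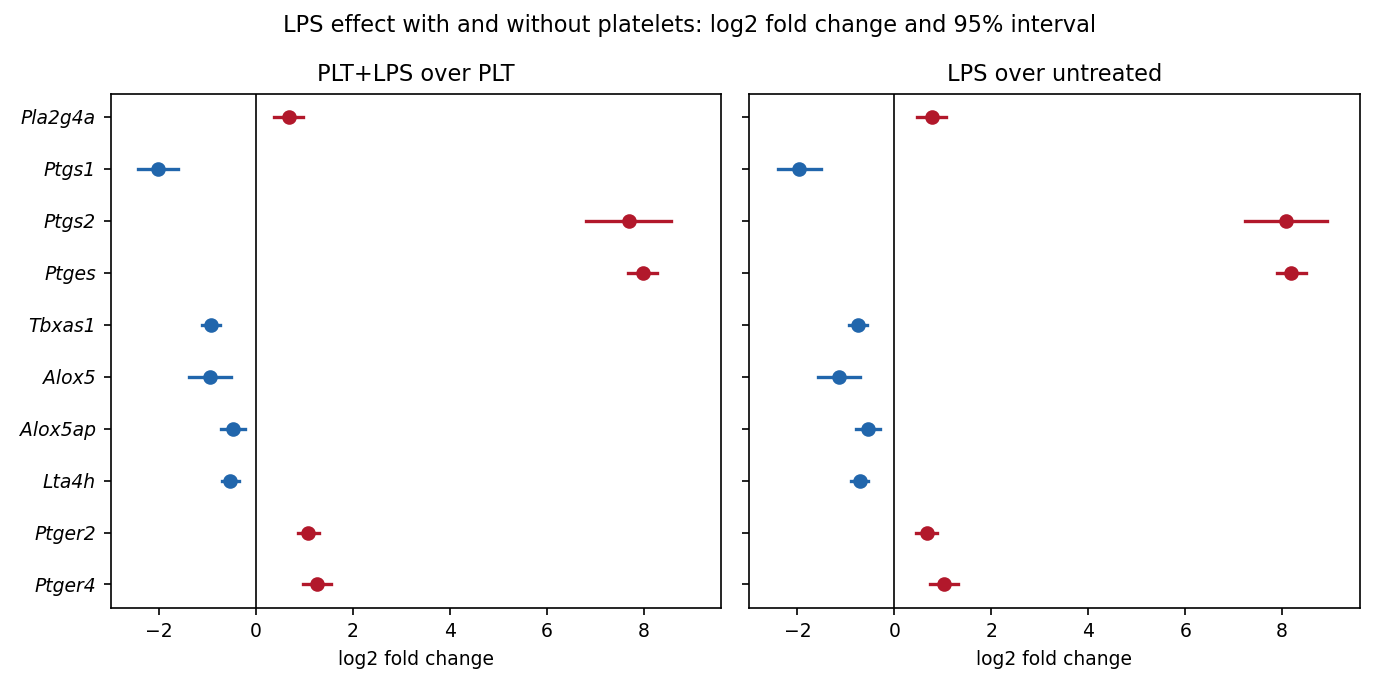
Log2 fold changes of the 10 genes with LPS, after platelets (PLT+LPS over PLT) and without platelets (LPS over untreated), as points with 95% intervals from edgeR. Red points are higher and blue points lower past the adjusted threshold; Ptgs2 and Ptges lie near 8 in both panels, at 7.69 and 7.98 after platelets and at 8.09 and 8.19 without.

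Whether the platelet effect differed with LPS was tested by the interaction, the platelet effect under LPS minus the platelet effect at rest, in the same fit of all 12 libraries as the comparisons above, which share their groups. None of the 10 genes passed it by edgeR, DESeq2 or limma-voom, where edgeR called 1.58% of all genes tested, and 1 of the 10 had an unadjusted p under 0.05, against 10.6% of all genes tested. That gene was Ptger2, whose platelet effect was 0.18 under LPS and -0.23 at rest (difference 0.41, SE 0.14, edgeR adjusted p = 0.256). For Ptgs2 the platelet effects were -1.25 under LPS and -0.86 at rest, and the difference of -0.40 had a 95% interval of -1.82 to 1.03. The Ptgs2 difference was -1.19 to 1.25 across fits that left out 1 library, and 1.25 was the value without PLT replicate 3. Pla2g4a had platelet effects of -0.65 and -0.56, with a difference of -0.09 (95% interval -0.51 to 0.33), and Tbxas1 had 0.32 and 0.50, with a difference of -0.18 (-0.45 to 0.09). Without PLT replicate 1, 0 of the 10 passed, where 361 of 13568 genes tested were called. The differences were then 0.27 for Ptger2 (edgeR adjusted p = 0.306), -0.86 for Ptgs2, -0.30 for Pla2g4a and -0.25 for Tbxas1.

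Ordered by CPM per kilobase of exon, the pathway had a different leading gene with and without LPS. The length is that of all annotated exons of a gene joined. The transcripts these cells use were not measured, so the order between genes is approximate. In PLT+LPS libraries Ptges led at 160 ± 2.03 CPM per kb, with Alox5ap at 157 ± 5.53, a gap within their spread, and Ptgs2 at 24.0 ± 3.82 (SD, n = 3 each). In LPS libraries Ptges led at 177 ± 5.92, followed by Alox5ap at 153 ± 15.8 and Ptgs2 at 57.3 ± 3.16 CPM per kb. Without LPS, Alox5ap led in PLT libraries at 218 ± 36.6 and in untreated libraries at 223 ± 21.2 CPM per kb. The next genes were far below it: Tbxas1 at 18.6 ± 1.37 and Lta4h at 13.1 ± 1.07 in PLT libraries, and Lta4h at 13.9 ± 0.296 and Tbxas1 at 13.2 ± 0.820 in untreated libraries, where they did not differ beyond their spread. Ptgs2 was last at 0.108 ± 0.127 in PLT libraries and 0.211 ± 0.157 CPM per kb in untreated libraries, and Ptgs1 was last with LPS, at 0.619 ± 0.135 in PLT+LPS libraries and 0.468 ± 0.0839 in LPS libraries. In the LPS groups the middle of the order, Pla2g4a, Ptger2, Lta4h and Tbxas1, lay between 7.84 and 14.9 CPM per kb.

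The genes whose log2 CPM followed Ptgs2 most closely over the 12 libraries, out of 8314 candidates, were Reps1, Swap70, Stxbp6, Tyk2 and Gas7 (Pearson's r 0.992 to 0.993). Those for Ptges were Clec4e, Edn1, Trim21 and Sdc4 (0.999), and those for Ptgs1 were Sgsh, Trim47, Dusp3, Slc66a1 and Yaf2 (0.983 to 0.987). Group differences with LPS dominate these values, and the libraries share their treatments. Swap70, for instance, averaged 314 CPM in PLT+LPS libraries, 450 CPM in LPS libraries, 68.7 CPM in PLT libraries and 79.9 CPM in untreated libraries. Stxbp6 differed less between the first 2 of these groups, at 35.2, 38.6, 12.5 and 13.5 CPM in the same order.

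Beside the 10 genes, a list of 62 further eicosanoid genes was examined, of which 60 were in the tables and 34 were tested. With LPS alone, 13 were higher and 9 lower than in untreated libraries (edgeR), where 50.7% of all genes tested were called. The split of the 34 turned with scaling, to 9 higher and 11 lower with upper quartiles and 8 higher and 13 lower with unscaled library totals. Among genes of at least 5 CPM in either group the largest rises were those of Fpr2, Ptgs2os2, Anxa1 and Lpcat2. Fpr2, a receptor for formyl peptides and annexin A1, was at 233, 242 and 212 CPM in LPS libraries, against 3.93, 5.57 and 5.47 CPM in untreated libraries (log2 fold change 5.52). Ptgs2os2, a long noncoding RNA transcribed beside Ptgs2, was at 5.17, 5.68 and 4.85 CPM in LPS libraries, against 0.210, 0.456 and 0.374 CPM in untreated libraries (3.90). Anxa1, the gene of annexin A1 itself, rose by 1.93 and Lpcat2, an acyltransferase that loads arachidonate into phospholipids and makes platelet-activating factor, by 1.78. The largest falls among genes of at least 5 CPM in either group were those of Pla2g15, a lysosomal phospholipase (-1.92), Hpgds, which makes prostaglandin D2 in blood cells (-1.82), Cotl1, a binding partner of 5-lipoxygenase (-0.94), and Ptgr2, a prostaglandin reductase (-0.69). Hpgd, the main enzyme of prostaglandin E2 breakdown, was chosen after its values were seen, at 0.253, 0.447 and 0.381 CPM in LPS libraries, against 3.65, 3.01 and 4.38 CPM in untreated libraries (-3.35, edgeR adjusted p = 9.28e-07).

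Under LPS, 2 of the 34 were higher and 4 lower with platelets, against 4.41% and 2.87% of all genes tested. Anxa1 was at 1749, 1785 and 1757 CPM in PLT+LPS libraries, against 2321, 2323 and 2236 CPM in LPS libraries (log2 fold change -0.38, edgeR adjusted p = 0.0014), and held in all 21 alternatives. Ptgr1, a reductase that inactivates leukotriene B4 and prostaglandins, was lower by 0.45 (edgeR adjusted p = 0.0125), and Dpep2, a dipeptidase that forms leukotriene E4, by 0.37 (adjusted p = 0.014); each call was lost in 3 of 21 alternatives. Ptgr1 lost it without LPS replicate 1 (edgeR adjusted p = 0.0717) or PLT+LPS replicates 1 (0.0503) or 3 (0.067), and Dpep2 without LPS replicate 3 (0.057) or PLT+LPS replicates 1 (0.0632) or 3 (0.0649). Ggt5, which turns leukotriene C4 into D4, had 3, 0 and 1 counts in PLT+LPS libraries, against 37, 14 and 27 counts in LPS libraries (edgeR adjusted p = 0.0059). Cyp4f18, a leukotriene B4 hydroxylase in the mouse, was at 21.7, 24.7 and 19.6 CPM in PLT+LPS libraries, against 15.9, 16.8 and 15.3 CPM in LPS libraries (0.46, edgeR adjusted p = 0.0256). Its call was lost without LPS replicates 1, 2 or 3 (edgeR adjusted p = 0.0805, 0.0514 and 0.0943) or PLT+LPS replicates 1 or 2 (0.07 and 0.131).

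At rest, 3 of the 34 were higher and 4 lower in PLT than in untreated libraries, against 3.63% and 2.86% of all genes tested. Without PLT replicate 1 they were 3 and 3, where 590 of 13568 genes tested were higher and 296 lower. Dpep2 was at 95.9, 111 and 113 CPM in PLT libraries, against 142, 157 and 154 CPM in untreated libraries (log2 fold change -0.50, edgeR adjusted p = 0.00172), and held in all 21 alternatives. Ptgr1 (-0.45), Ptgir, the prostacyclin receptor (-0.39), and Anxa1 (-0.24) were also lower, with calls kept in 17, 14 and 10 of 21 alternatives. Lpcat2 (0.53) and Prxl2b, a prostaglandin F synthase (0.76), were higher, with calls kept in 19 and 18. In a fit of the compared groups alone, 2 of 31 genes tested were called, and Ptgr1, Ptgir, Anxa1, Lpcat2 and Prxl2b all lost their calls. A replicate block left 5 of the 34 called. The edgeR call on Lpcat2 was lost without untreated replicate 1 (adjusted p = 0.0554), that on Prxl2b without untreated replicates 1 (0.0727) or 2 (0.0916), and that on Ptgr1 without untreated replicates 2 (0.065) or 3 (0.0539) or PLT replicate 2 (0.0644). Ptgir lost it without untreated replicates 1, 2 or 3 (edgeR adjusted p = 0.146, 0.111 and 0.0514) or PLT replicates 1 or 2 (0.0752 and 0.096). Anxa1 lost it without untreated replicates 1, 2 or 3 (edgeR adjusted p = 0.0532, 0.125 and 0.118), PLT replicates 2 or 3 (0.0611 and 0.0625) or PLT+LPS replicates 1 or 2 (0.0579 and 0.0519).

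Alox12, the platelet-type 12-lipoxygenase, had 65, 40 and 57 counts in PLT+LPS libraries and 15, 8 and 8 counts in LPS libraries, and 109, 114 and 113 counts in PLT libraries and 2, 1 and 1 counts in untreated libraries. It was high in both platelet groups, which did not overlap with the other groups, and was higher by 2.26 under LPS and by 6.12 at rest on the log2 scale (edgeR adjusted p = 0.000359 and 2.18e-07). It was also the only 1 of the 34 past the interaction (-3.86, SE 0.58, edgeR adjusted p = 0.00286). The interaction is equally the difference between 2 LPS effects. Alox12 was higher in LPS than in untreated libraries (log2 fold change 3.12, edgeR adjusted p = 0.000101). In PLT+LPS libraries it was lower than in PLT libraries (-0.75, edgeR adjusted p = 0.0281), a call kept in 16 of 21 alternatives. Of the 16 platelet markers tested, 10 were higher and 1 lower under LPS and 9 higher and 1 lower at rest, and 1 passed the interaction, Clec1b, a platelet receptor (-4.44). Their part in the Alox12 values was not tested.

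**Figure D4:**
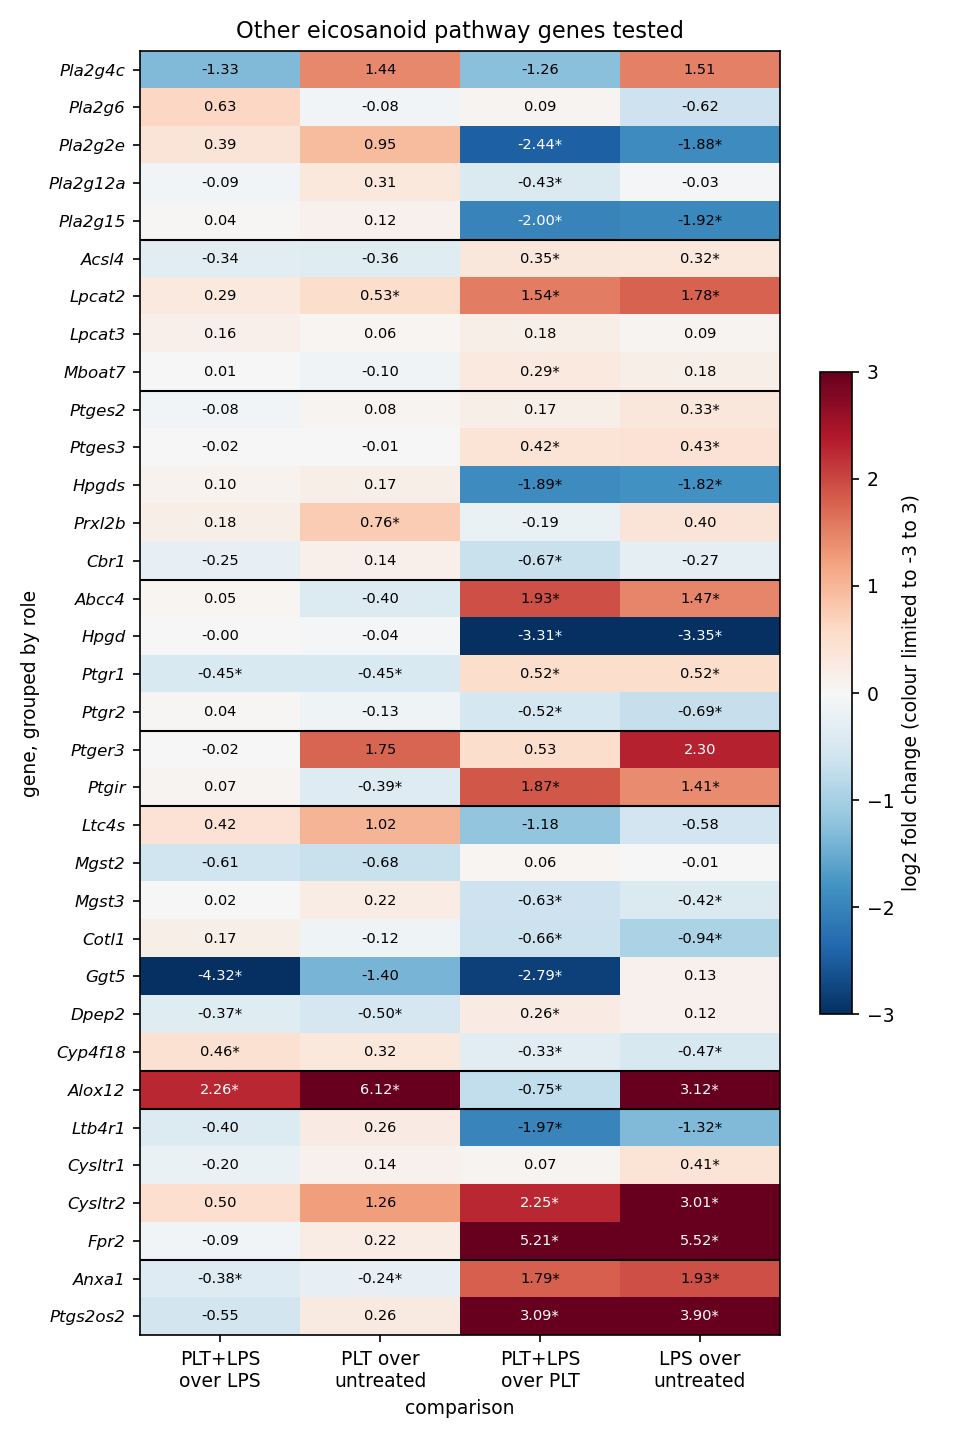
Log2 fold changes (colour) of the 34 further eicosanoid genes tested, in rows grouped by role, in 4 comparisons given as columns; marks show genes past edgeR's adjusted threshold. The 2 platelet comparisons, drawn first, carry 6 and 7 marks and the 2 LPS comparisons 25 and 22.

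In the GENCODE M21 annotation, exons of 5 of the 10 genes overlap exons of another gene, on the other strand in each case. Exons of Ptger4 share 1015 bases, 15.3% of the gene, with Gm15937, which had at most 1 count per group. They share 82 bases (1.23%) with Ttc33, an expressed gene with 1561 to 1844 counts per group. Those of Alox5ap share 189 bases (13.3%) with Gm19719, which had 7 to 41 counts per group. The overlaps of Ptgs1, Tbxas1 and Ptger2 cover between 1.58% and 4.74% of the gene, with partners of 0 to 27 counts per group. The sources used here do not state if counting used strand, so reads from these stretches cannot be told apart.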

How the data were processed

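Gene counts of the 12 libraries were used as the authors deposited them, whole numbers of reads per gene with no normalization. Per the submitters' processing notes, fastp 0.23.1, STAR 2.7.9a, Subread 2.0.1, featureCounts and Salmon 1.5.2 were used, with no roles stated; no genome build, annotation or strand setting is named in the sources used here. The cDNA was pre-amplified before library preparation, per the labels' protocols, and no molecular identifiers are named, so limits from counts cover counting error only. Groups came from the titles. Counts were filtered with filterByExpr (13151 of 53819 genes kept), scaled with TMM and fitted in edgeR 4.0.16 (R 4.3.3) with 4 group means over 12 libraries by the two-sided quasi-likelihood test, and p-values were adjusted by Benjamini-Hochberg over all genes tested. Standard errors come from the F statistic. Alternatives tried were other scalings in edgeR (by DESeq2's size factors, by upper quartiles, by unscaled totals), other filters (none, or at least 1 CPM and 10 counts in 3 libraries), a replicate block, DESeq2 1.42.0, limma-voom (limma 3.58.1), only the groups compared, and each library left out. Exon lengths and overlaps are from GENCODE M21, promoter windows from RefSeq. Of the further pathway genes, those called with platelets or in the interaction were named, with the 4 largest rises and 4 largest falls with LPS among genes of at least 5 CPM; for Ptgs2, Ptges and Ptgs1 the 5 most correlated genes of at least 10 CPM, of which 1 is not reported here. The genes, lists and markers were chosen with earlier results of these data known.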

Additional observations from a re-analysis of the deposited data

Results flagged for a closer look

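Alox12, the platelet-type 12-lipoxygenase gene, had a platelet effect that differed between the 2 LPS conditions, by the interaction term in edgeR. The difference was -3.86 on the log2 scale (SE 0.58, adjusted p = 0.00286), with a platelet effect of 2.26 under LPS and 6.12 at rest, where the untreated libraries held 2, 1 and 1 counts. It was past the threshold in all 20 alternatives, with adjusted p between 9e-05 and 0.0169. By LPS effects, Alox12 was higher in LPS than in untreated libraries (log2 fold change 3.12) and lower in PLT+LPS than in PLT libraries (-0.75).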

How the results depend on the processing

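Among the 10 genes, direction and call were kept in 210 of 210 alternative values for LPS against untreated, 209 of 210 for PLT+LPS against PLT, 194 of 210 for PLT+LPS against LPS and 198 of 210 for PLT against untreated. For PLT against untreated, 4 of the 10 were called with no filter and 1 with the compared groups alone, and 1 to 4 with a library left out. Of the further genes, 2 of 31 tested were called with the compared groups alone, and 3 to 8 of 34 with a library left out. Over all genes the counts were 1291 with DESeq2, 415 with the compared groups alone and 410 to 1027 with a library left out, against 854. For PLT+LPS against LPS, leaving out a library gave 1 to 3 of the 10, 3 to 7 of the 34 and 557 to 1640 of all genes, against 957. For the interaction, all-gene counts were 371 with no filter, 394 with DESeq2 and 87 to 361 with a library left out, against 208.

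No pairing of the libraries by replicate number was seen: 1 of 18 same-number pairs had a correlation of deviations over 0.1, and 2 of 12 libraries matched their own number best. These correlations rest on few libraries per group and cannot exclude a weak pairing. With a replicate block, 118 genes were called in the interaction, and among the 10 genes only Tbxas1 in PLT+LPS against LPS lost its call.

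Small effects changed sign with a library left out. The ranges were -0.13 to 0.18 for Ptges and -0.16 to 0.047 for Alox5ap in PLT against untreated, and -0.042 to 0.10 for Alox5ap in PLT+LPS against LPS. In the interaction they were -1.19 to 1.25 for Ptgs2, -0.30 to 0.022 for Pla2g4a, -0.26 to 0.071 for Ptgs1, -0.077 to 0.33 for Alox5 and -0.0057 to 0.19 for Alox5ap; limma-voom gave 0.014 for Ptgs2. The cause of these changes was not tested. With 3 libraries a group and few counts of Ptgs2 without LPS, its platelet effect at rest and its interaction are loosely bounded.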
